A study of Bos taurus with 6 samples.

Results

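The transcripts described here are those of oxidative phosphorylation in longissimus muscle of Qinchuan cattle. A transcript was counted as a member if its row in the deposited table carries the KEGG pathway label 00190, oxidative phosphorylation, and members were then grouped by symbol prefix into respiratory complexes I (NDUF), II (SDH), III (UQCR and CYC), IV (COX) and V (ATP5) and the vacuolar ATPase (ATP6). This rule found 95 transcripts of 93 gene symbols among the 5288 transcripts of 5206 symbols in that table. Skeletal muscle was taken from 3 embryos of 90 days and from 3 adult animals of 24 months, all of the same breed, and no treatment or genetic change is given for either group. Strand-marked RNA libraries depleted of ribosomal RNA were sequenced. The table holds, for each transcript that the authors called different between the stages, 1 value per stage in FPKM, the number of fragments scaled to the length of the transcript and to the size of the library.

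Oxidative phosphorylation is the way in which mitochondria turn the energy of food into ATP. Complex I accepts electrons from NADH and complex II from succinate, complex III passes them to cytochrome c, and complex IV gives them to oxygen, while complexes I, III and IV pump protons out of the matrix and complex V, the ATP synthase, lets them back to make ATP. The subunits are encoded in part by the nuclear genome and in part by the mitochondrial genome, and striated muscle uses its own isoforms of several complex IV subunits. The vacuolar ATPase, which shares the KEGG label, is a related pump that spends ATP to acidify lysosomes and endosomes and is not a part of the respiratory chain.

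Because there is 1 value per stage, no spread between animals, no error and no test can be given for any value below, and the number of fragments behind each value is unknown. A row is in the table only because it was called, and the smallest log2 difference between the stages in it is 1.001, so subunits that were not called are not seen. In bulk tissue, fewer cells of a type and less RNA per cell cannot be told apart. Of 12 markers of adult skeletal muscle, 8 are listed in 9 rows, all higher in the adult, and their summed FPKM was 3521 in the embryo against 102497 in the adult. Of 5 markers of embryonic muscle, ACTC1, MYL4 and TNNT2 are listed by symbol, all lower in the adult, with sums of 1016 and 38.9. These sums leave out embryonic myosin heavy chain, which the paper lists as lower in the adult under the name MYHC-EMBRYONIC. The 3 cartilage markers ACAN, COL2A1 and SOX9 are listed with sums of 15.8 in the embryo against 0.575 in the adult. Of other cell types, 1 of 5 adipocyte markers, 2 of 4 endothelial markers and 1 of 4 immune cell markers are listed, with adult sums of 6.75, 27.9 and 0.506 against embryonic sums of 0.252, 8.62 and 0.170, and no marker of heart or erythrocytes is listed. The part of these differences in tissue makeup in the results below was not tested.

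All 95 oxidative phosphorylation transcripts had a higher FPKM in adult than in embryonic muscle, against 90.3% of the whole table. At least 16-fold higher values in the adult, a log2 fold change of 4 or more, were found for 68 of the 95 members (71.6%), against 20.1% of the transcripts of the table that have a fold change. The median log2 fold change, adult over embryo, was 4.94 over the members, with quartiles of 3.91 and 5.56 and a range of 1.18 to 7.43, against a median of 2.71 over the table. Of the 95 members, 88 lay above the median of the table and 7 below it.

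By complex, the median log2 fold change was 5.31 for the 37 transcripts of complex I, 5.26 for the 4 of complex II, 5.45 for the 8 of complex III, 4.29 for the 14 of complex IV and 5.02 for the 16 of complex V. It was 2.81 for the 13 transcripts of the vacuolar ATPase, close to the median of the table. At least 16-fold higher in the adult were 34 of 37 transcripts of complex I, 4 of 4 of complex II, 8 of 8 of complex III, 8 of 14 of complex IV and 13 of 16 of complex V, but 1 of 13 of the vacuolar ATPase. Over complexes I to V alone, 67 of 79 transcripts (84.8%) passed that size, with a median of 5.07. By labels and prefixes, complexes I, II, III and V were thus close to each other in their medians. Complex IV was lower and the most spread out, and the vacuolar pump was lower still. The lower place of complex IV turns with the choice of members. With subunits chosen by symbol, its median was 5.43, against 5.45 for complex III and 5.03 for complex V.

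**Figure D1:**
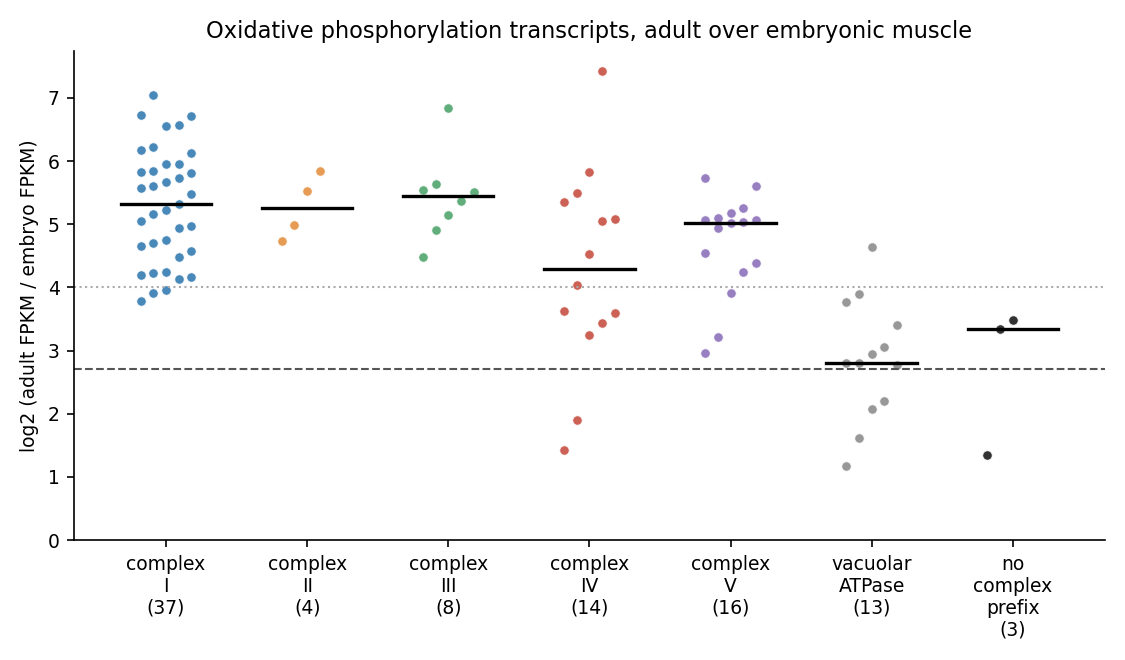
The log2 ratio of adult to embryonic FPKM is plotted for each of the 95 transcripts, by complex, with the number of transcripts in brackets, a bar at the group's median, a dashed line at the median of the whole table (2.71) and a dotted line at 16-fold (4). Complexes I, II, III and V sit mostly above the dotted line (medians 5.31, 5.26, 5.45 and 5.02), and complex IV spreads from 1.43 to 7.43. The median of complex IV is 4.29, but 5.43 with subunits chosen by symbol. The vacuolar ATPase lies around the dashed line (median 2.81), its median turning negative if the stages are scaled to the same FPKM total or centred on housekeeping transcripts.

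The FPKM values of the whole table add up to 70749.5 in the embryo against 674416 in the adult, so the direction of a moderate difference depends on how the stages are put on 1 scale. Centring fold changes on the median of 72 transcripts of cytosolic ribosomal proteins lowers each log2 fold change by 2.31, centring on the median of the table by 2.71, scaling both stages to the same FPKM total by 3.25 and centring on 18 listed housekeeping transcripts by 3.69. Under these scalings, in the same order, 88, 88, 80 and 74 of the 95 members remained higher in the adult, against 60.6%, 50%, 35.1% and 25.6% of the table. The number at least 16-fold higher in the adult dropped from 68 to 7, 5, 1 and 0 members, while that size was passed by 2.32%, 1.49%, 0.877% and 0.629% of the table. All members of complexes I, II and III stayed higher in the adult under each of the 4 scalings. Of the 14 transcripts of complex IV, 12, 12, 11 and 8 did so, of the 16 of complex V 16, 16, 14 and 14, and of the 13 of the vacuolar ATPase 9, 9, 4 and 3. The scalings rest on called transcripts, most of which were higher in the adult. All 72 ribosomal and all 18 housekeeping transcripts were higher, the latter with log2 fold changes of 1.16 to 6.45. Of 29 housekeeping symbols 18 are listed, and a transcript alike in both stages could not be. A value that turns negative under such a scaling is below the median of that set. It does not show a lower level in the adult. The paper also reports that the libraries differed by stage. In the embryo a smaller share of reads mapped, and fewer of the mapped reads fell in exons and more in introns. This difference goes with age in all libraries, and its part in the values here was not tested.

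Most members were below 100 FPKM in the embryo and above it in the adult. The median FPKM of the members was 8.28 in the embryo against 332 in the adult. Above 100 FPKM stood 2 members in the embryo, COX6A2 and ATP5I, and 71 in the adult, of which 13 exceeded 1000. None of the members is listed at 0 in either stage, and 4 were under 1 FPKM in the embryo (ATP6V1C1, ATP6V0A2, NDUFA5 and COX11), where the ratio rests on a low value. The summed FPKM of the members was 1422 in the embryo against 44645 in the adult, a ratio of 31.4. In their share of the FPKM total of the table they went from 2.01% to 6.62%. Without the 9 rows of 7SK and Metazoa_SRP, abundant non-coding RNAs, that share was 2.88% in the embryo against 7.70% in the adult, a comparison chosen after the values were seen.

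Members that were high in the embryo tended to be high in the adult as well. Across the 95 members the log2 FPKM of both stages had a Pearson correlation of 0.82 (Spearman 0.79), across the 79 of complexes I to V 0.77 (0.72) and across the 37 of complex I 0.63 (0.42). These are descriptions across genes, which share the same libraries and their own exon length in both values and are not replicates.

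**Figure D2:**
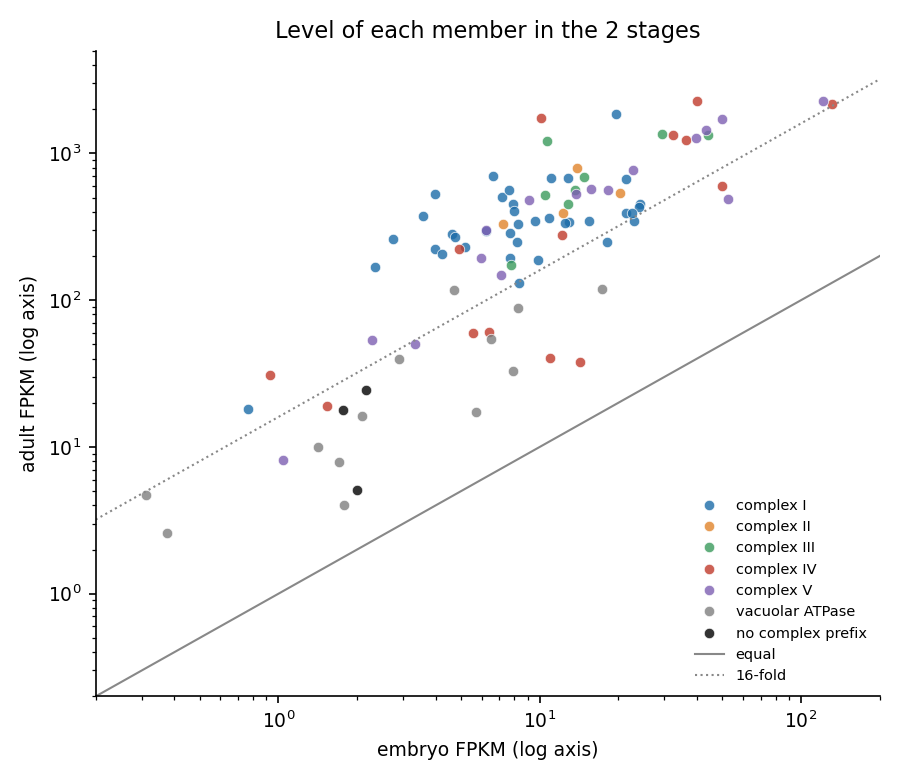
Each point is 1 of the 95 transcripts, with its embryonic FPKM on the horizontal and its adult FPKM on the vertical log axis, coloured by complex, and lines mark equal levels and a 16-fold higher adult level. All points lie above the line of equality, with 71 above 100 FPKM in the adult against 2 in the embryo, while the vacuolar ATPase lies mostly below the 16-fold line and lower on both axes. Of the 95 members, 74 to 88 stay higher in the adult under the 4 other scalings.

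Complex I is the largest member group and the entry point for electrons from NADH. Its summed FPKM was 389 in the embryo against 14747 in the adult, a ratio of 37.9, and the log2 fold changes of its 37 transcripts ranged from 3.79 to 7.04. The 6 listed core catalytic subunits had a median log2 fold change of 5.77 and the 31 accessory transcripts one of 5.22. NDUFV2, an iron-sulfur subunit of the module that oxidises NADH, had an FPKM of 3.99 in the embryo against 526 in the adult, at chr24:41855937-41874838 of the bosTau7 genome. Its 132-fold difference (log2 7.04) was the largest of the complex.

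NDUFV1, the partner of NDUFV2 that binds NADH and FMN, had 4.75 and 267 FPKM (log2 fold change 5.82). NDUFS1, the iron-sulfur subunit of the same module, had 2.34 and 169 (6.18). NDUFS3 and NDUFS8, core subunits nearer the membrane, had smaller ratios. NDUFS3 had 9.86 in the embryo against 188 in the adult (4.25), and NDUFS8, an iron-sulfur subunit, had 8.33 and 130.2 (3.97). The core subunit NDUFS7 is not listed.

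Among the accessory subunits, NDUFA1, a small membrane protein, had 6.61 FPKM in the embryo against 702 in the adult (log2 fold change 6.73). NDUFA12 had 3.57 and 376 (6.72), and NDUFB4 had 2.75 and 259.9 (6.56). These and NDUFV2 started below the median of the complex in the embryo, 8.15 FPKM. Smaller ratios were found for several members of high embryonic level, which is also the denominator of the ratio, though NDUFA4 and NDUFA13 (21.3 and 671 FPKM, 4.98) were higher than NDUFB2 in the embryo and had larger ones. NDUFB10 had the highest embryonic level of the complex, 24.2 FPKM against 452 in the adult (4.22), NDUFB11 had 22.9 and 344 (3.91) and NDUFB2, with the smallest ratio of the complex, 18.1 and 249.5 (3.79). NDUFA5 was the lowest transcript of the complex in both stages, with 0.764 and 18.2 FPKM (4.57).

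NDUFA4 was the highest complex I transcript in the adult, with 19.6 FPKM in the embryo against 1867 in the adult (log2 fold change 6.57). Its symbol places it in complex I, but the protein is known as a subunit of complex IV in mammals. NDUFAB1, the mitochondrial acyl carrier protein that also serves lipoic acid synthesis, had 7.99 and 405 (5.66).

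By series of symbols, the 13 NDUFA transcripts other than NDUFAB1 had a median log2 fold change of 5.16, the 11 NDUFB transcripts 5.58 and the 10 NDUFS and NDUFV transcripts 5.54. The NDUFB transcripts, subunits of the membrane arm, drew closer together in level. Their highest embryonic FPKM was 8.79 times their lowest, and in the adult this ratio was 3.03. For complex I as a whole the highest to lowest ratio was 31.7 in the embryo against 102.5 in the adult. NDUFA5 was the lowest in both stages. The highest was NDUFB10 in the embryo but NDUFA4, whose protein is known as a subunit of complex IV, in the adult. The ratio of the upper to the lower quartile was 2.51 in the embryo and 1.81 in the adult.

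Complex II oxidises succinate and belongs to the citrate cycle as well as to the respiratory chain. All 4 of its subunits are listed, and their summed FPKM was 53.7 in the embryo against 2061 in the adult, a ratio of 38.4. SDHA, the flavoprotein that holds the succinate site, had 20.3 and 539 FPKM, with the smallest log2 fold change of the complex, 4.73. SDHB, its iron-sulfur partner, had 13.9 and 799.5 FPKM and the largest, 5.84.

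The membrane anchors of complex II lay in between. SDHC had 12.3 FPKM in the embryo against 389 in the adult (log2 fold change 4.99), and SDHD had 7.21 and 332 (5.53). The 4 levels stayed within a factor of 2.81 of each other in the embryo and of 2.41 in the adult, the closest range of the complexes.

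Complex III carries electrons from ubiquinol to cytochrome c. Its 8 listed transcripts had log2 fold changes of 4.49 to 6.84, and its ratio of summed FPKM, 144 in the embryo to 6291 in the adult, was 43.8, the highest of the 6 groups. UQCRQ, a small accessory subunit at chr7:46069105-46070318, had 10.6 FPKM in the embryo against 1222 in the adult. This 115-fold difference (log2 6.84) stood above the other members of the complex.

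The catalytic subunits of complex III were close to each other in both stages. CYC1, cytochrome c1, had 13.6 and 564 FPKM (log2 fold change 5.38), and UQCRFS1, the Rieske iron-sulfur protein, had 14.7 and 688 (5.54). The core proteins UQCRC1 and UQCRC2, which descend from processing peptidases, had 12.8 and 453 (5.15) and 10.5 and 519.6 (5.63). Of the small subunits, UQCR10 had 29.4 and 1347 (5.52), UQCR11 44.2 and 1324 (4.91) and UQCRH, the hinge protein, 7.79 and 175 (4.49). UQCRB is not listed.

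Complex IV, cytochrome c oxidase, was the most heterogeneous of the respiratory complexes. Its 14 transcripts spanned log2 fold changes of 1.43 to 7.43, and 8 of them were at least 16-fold higher in the adult. The 11 labelled transcripts of subunits had a median of 4.04, with 6 at least 16-fold higher. With subunits chosen by symbol, the median was 5.43. The summed FPKM of the 14 was 357 in the embryo against 10115 in the adult, a ratio of 28.3.

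COX7A1, the heart and skeletal muscle isoform of subunit VIIa, at chr18:46994973-46997047, had the largest ratio of all 95 members. Its FPKM was 10.1 in the embryo against 1745 in the adult, a 173-fold difference (log2 7.43). COX7A2, the isoform found in most other tissues, had 5.56 and 60.1 FPKM (log2 3.43, turning negative if centred on the housekeeping transcripts). The share of COX7A1 in the summed FPKM of both isoforms was 64.5% in the embryo against 96.7% in the adult, and the fold of COX7A1 was 16 times that of COX7A2.

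Subunit VIa showed the same order of isoforms from a different starting point. COX6A2, the muscle isoform, at chr25:27737581-27738205, was already the most abundant of the 95 members in the embryo, with 132 FPKM, and had 2175 in the adult (log2 fold change 4.04). COX6A1, the isoform of most other tissues, had 10.9 and 40.6 FPKM, and its log2 fold change of 1.89 turned negative under each of the 4 scalings. COX6A2 made up 92.4% of the summed FPKM of both in the embryo against 98.2% in the adult. The row of COX6A1 shares its locus with rows of GATC (log2 fold change 4.21) and TRIAP1 (3.17), neighbouring genes whose transcripts the assembly placed at the same locus.

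For subunit VIII, COX8B, the muscle isoform, had 4.91 FPKM in the embryo against 223 in the adult (log2 fold change 5.50), in a locus shared with PSMD13, a proteasome gene, whose row had a log2 fold change of 2.31. The row named COX8A, the isoform of most tissues, had 14.2 and 38.2 FPKM (1.43, turning negative under each of the 4 scalings). COX8B made up 25.7% of the summed FPKM of both rows in the embryo against 85.4% in the adult. The COX8A row spans 449 bases, chr20:24442439-24442887, on another chromosome than the RefSeq gene of that name, so whether it stands for that gene was not tested.

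**Figure D3:**
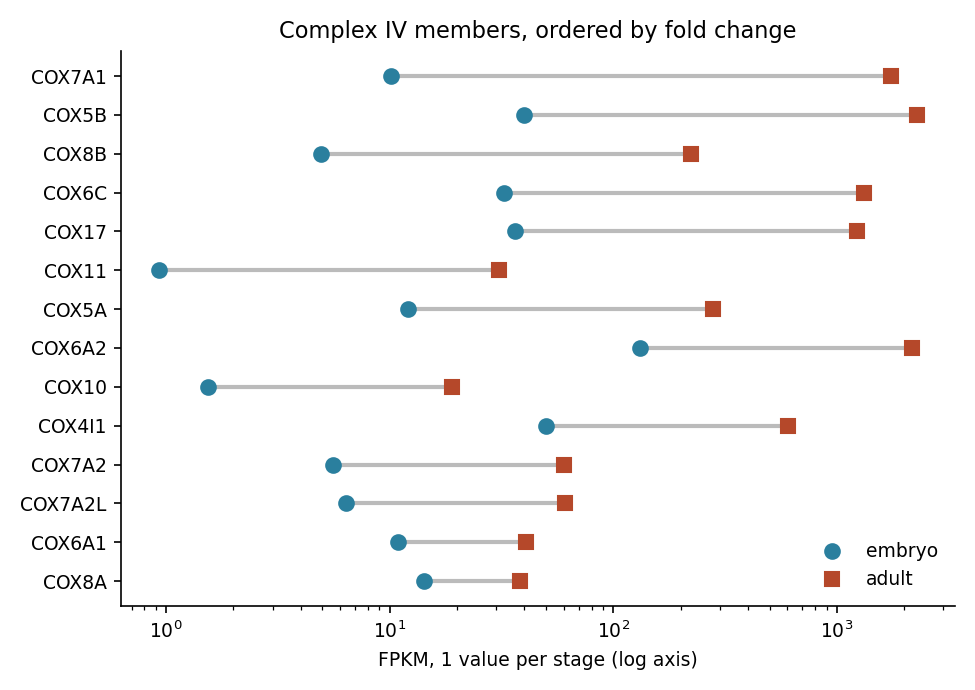
For each of the 14 complex IV transcripts, ordered by fold change, a circle marks the embryonic and a square the adult FPKM on a log axis, joined by a line. The muscle isoforms COX7A1 (10.1 to 1745), COX6A2 (132 to 2175) and COX8B (4.91 to 223) have longer lines than COX7A2, COX6A1 and COX8A, of which COX6A1 and COX8A turn lower in the adult under each of the 4 scalings and COX7A2 if centred on housekeeping transcripts.

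The subunits of complex IV without a listed partner isoform also differed widely. COX5B had 39.98 FPKM in the embryo against 2280.5 in the adult (log2 fold change 5.83), the highest adult level of the complex. COX6C had 32.5 and 1326 (5.35), and COX5A had 12.1 and 279.5 (4.53). COX4I1, the larger regulatory subunit IV, had 49.9 and 602 (3.59, turning negative if centred on the housekeeping transcripts), in a locus shared with EMC8 (3.23). COX7A2L, known in mouse and human cells for joining complexes III and IV, had 6.37 and 60.7 (3.25, turning negative at the same FPKM total and if centred on the housekeeping transcripts).

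The 3 labelled assembly factors of complex IV were far apart in level. COX17, the copper chaperone of the intermembrane space, had 36.3 FPKM in the embryo against 1235 in the adult (log2 fold change 5.09). COX11, which inserts copper, had 0.930 and 30.9 (5.05), and COX10, a haem A synthesis enzyme, had 1.54 and 18.9 (3.62, turning negative if centred on the housekeeping transcripts).

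Complex V, the ATP synthase, had 16 transcripts of 14 symbols, with a summed FPKM of 412 in the embryo against 10871 in the adult, a ratio of 26.4. The 6 transcripts of the F1 part, alpha to epsilon subunits with both rows named ATP5E, had a median log2 fold change of 5.08. The 10 other transcripts of the complex had one of 4.98. ATP5A1 and ATP5B, the alpha and beta subunits that form the head, had 43.3 and 1450.2 FPKM (5.07) and 49.8 and 1708 (5.10). ATP5C1, the rotating gamma subunit, had 6.25 and 303 (5.60). The delta subunit ATP5D had 52.7 and 487, a smaller log2 fold change of 3.21 that turned negative at the same FPKM total and if centred on the housekeeping transcripts.

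The epsilon subunit ATP5E has a row at chr13:57866137-57869829, with 13.8 FPKM in the embryo against 527 in the adult (log2 fold change 5.26). Another row of that name, 393 bases long at chr22:35335189-35335581, had 1.04 and 8.09 FPKM (2.96), and it lies on another chromosome than the RefSeq gene. Its direction turned under the same scalings as that of ATP5D. Of the 95 members, all matched a RefSeq gene by symbol or synonym, and this row and COX8A were the 2 on another chromosome.

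In the membrane part, ATP5F1, the b subunit of the stator stalk, had the largest ratio of the complex, with 9.06 FPKM in the embryo against 480.0 in the adult (log2 fold change 5.73). ATP5I, the e subunit of the membrane part, had the highest adult level of all 95 members, with 121 in the embryo against 2288 in the adult (4.24). The c subunit that forms the rotor ring is encoded by several genes with the same mature protein. ATP5G1 had 15.7 and 569 (5.18) and ATP5G3 22.8 and 767 (5.07), so that ATP5G3 made up 59.1% of their sum in the embryo against 57.4% in the adult. Here, unlike for subunits VIa and VIIa of complex IV and the rows named for subunit VIII, the 2 listed isoforms kept nearly the same proportion. ATP5G2, another gene of this subunit, is not listed, so its share is not known.

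ATP5J, coupling factor 6, is listed with 2 transcripts of the same locus, with 5.94 and 194 FPKM (log2 fold change 5.03) and with 3.33 and 50.2 (3.91). That locus also holds GABPA, a subunit of a transcription factor of nuclear genes for mitochondrial proteins, with 3.03 and 16.6 FPKM (2.46). In all, 8 member symbols share a locus with a row of another gene, the others being NDUFB1 (with CPSF2), NDUFS6 (with MRPL36), ATP6V1D (with EIF2S1) and ATP6V1E1 (with BCL2L13). Whether strand was used in assigning fragments at such loci is not stated in the sources used here.

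The vacuolar ATPase had a lower median level in both stages (2.90 and 17.4 FPKM) and a lower ratio than each respiratory complex. The summed FPKM of its 13 transcripts was 61.0 in the embryo against 513 in the adult, a ratio of 8.41, which turned below 1 at the same FPKM total (0.882) and if centred on the housekeeping transcripts (0.652). The 8 transcripts of the V1 part, which hydrolyses ATP, had a median log2 fold change of 3.18, and the 5 of the membrane part V0 and its accessory protein one of 2.07. ATP6V1F, a small V1 subunit, was the only member of this group at least 16-fold higher in the adult, with 4.71 and 117 FPKM (4.63). ATP6V1G1, a V1 stalk subunit, was the most abundant of them in both stages, with 17.4 and 119 (2.78, turning negative at the same FPKM total and if centred on the housekeeping transcripts).

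At the low end of the vacuolar pump, ATP6V0A1, a large membrane subunit, had 1.78 FPKM in the embryo against 4.02 in the adult (log2 fold change 1.18), the smallest ratio of all 95 members. Its paralogue ATP6V0A2 had 0.374 and 2.61 (2.80). The share of ATP6V0A1 in their sum was 82.6% in the embryo against 60.6% in the adult. ATP6AP1, the accessory protein, had 5.69 and 17.4 (1.61). The log2 fold changes of ATP6V0A1 and ATP6AP1 turned negative under each of the 4 scalings, and that of ATP6V0A2 at the same FPKM total and if centred on the housekeeping transcripts.

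The 3 members without a complex prefix are phosphatases. PPA2, the mitochondrial inorganic pyrophosphatase, had 2.16 FPKM in the embryo against 24.2 in the adult (log2 fold change 3.49), and its cytosolic counterpart PPA1 had 1.77 and 17.9 (3.34). Both turned negative if centred on the housekeeping transcripts. LHPP, a phosphatase of phospholysine, phosphohistidine and pyrophosphate, had 1.998 and 5.07 (1.34, negative under each of the 4 scalings).

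Within the summed FPKM of complexes I to V, the proportions of the complexes differed moderately between the stages. Complex I made up 28.7% in the embryo against 33.5% in the adult, complex II 3.96% and 4.67%, and complex III 10.6% and 14.3%. Complex IV made up 26.3% and 22.9%, and complex V 30.4% and 24.7%. By the labels and symbol prefixes, complex V had the largest share in the embryo and complex I in the adult. With subunits chosen by symbol, which moves NDUFA4 to complex IV and adds COX7B, COX7C and other rows without the label, complex IV made up 26.3% in the embryo against 28.4% in the adult, the largest adult share, complex I 26.7% and 27.0%, and complex V 32.6% and 27.1%. The order in the adult and the direction of complex IV therefore turn with the choice of members, an alternative added after the values were seen. The proportions do not depend on the scaling of the stages. They count only called transcripts, and FPKM of short transcripts is imprecise, so they are not proportions of the assembled complexes.

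**Figure D4:**
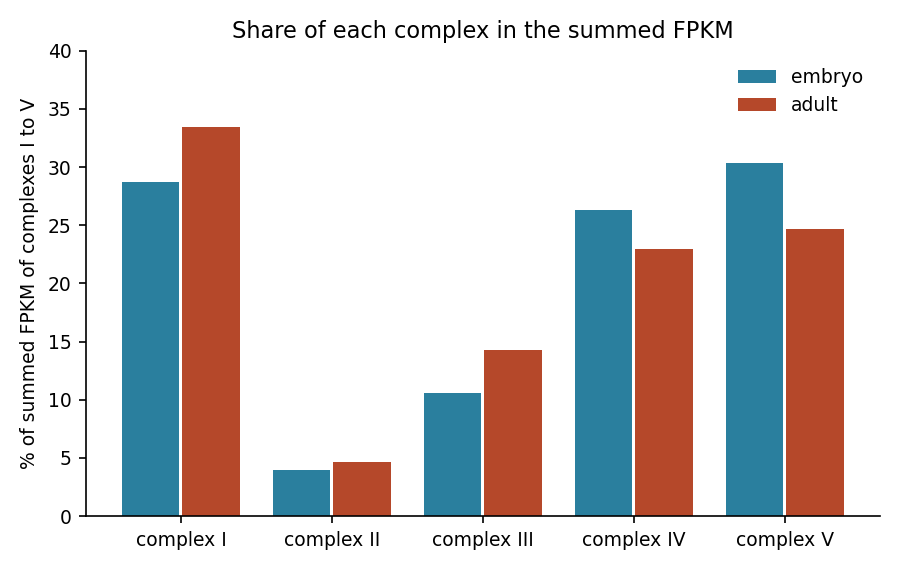
Bars give the share of each complex in the summed FPKM of the 79 transcripts of complexes I to V, in percent, for the embryo and the adult, with 1 value per stage and no error bars. Complexes I, II and III have a higher share in the adult (33.5%, 4.67% and 14.3%) than in the embryo (28.7%, 3.96% and 10.6%), and complexes IV and V a lower one, though with subunits chosen by symbol complex IV has a higher share in the adult (28.4%) than in the embryo (26.3%).

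Some respiratory subunits do not carry the pathway label, and their rows were higher in the adult too. Of 85 symbols of nuclear-encoded respiratory subunits in a list made by symbol, 78 are listed in 83 rows, 75 of which carry the label. The 8 rows without it belong to COX7B, COX7C, USMG5, MP68 and ATP5S. The main row of COX7B, subunit VIIb of complex IV, had 18.6 FPKM in the embryo against 1753 in the adult (log2 fold change 6.56), and that of COX7C had 12.4 and 819 (6.04). USMG5, a small subunit of the ATP synthase, had 12.9 and 1505 (6.86), and MP68, another of its small proteins, 25.3 and 507 (4.32). A further COX7B row on chromosome 17 had 1.32 and 243 (7.53). Another row each of COX7B and COX7C, at loci of 426 and 193 bases, is listed at 0 in the embryo, with 4.79 and 55.8 FPKM in the adult. Chosen by symbol, the list of complex IV takes in the rows of COX7B and COX7C and NDUFA4 and leaves out the assembly factors and COX7A2L, and its median was 5.43 instead of 4.29. Of the 13 subunits encoded by mitochondrial DNA, none is listed, so that nothing can be said here of the mitochondrial part of the complexes.

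Proteins that build the complexes were also higher in the adult, by less than the subunits at the median. Of 53 symbols of assembly factors, 29 are listed, all higher, against 90.3% of the table. At least 16-fold higher were 14 of the 29, against 20.1% of the transcripts of the table that have a fold change. Their median log2 fold change was 3.89, above the shifts of the 4 scalings. ECSIT, a factor of complex I that also serves innate immune signalling, had 2.61 FPKM in the embryo against 81.3 in the adult (4.96). LRPPRC, which stabilises mitochondrial mRNAs, had 0.137 and 20.1 (7.19), where the ratio rests on a low embryonic value. At the low end, SCO2, a copper carrier for complex IV, had 2.46 and 5.48 (1.16), and ACAD9 had 2.27 and 5.12 (1.17), both below the shift of each scaling. ATPIF1, the inhibitor that stops ATP synthase from running backwards, is counted in this list though it is not a builder, and had 24.5 and 808 (5.04).

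Some electron carriers and some transporters that feed the ATP synthase were listed with large ratios as well. CYCS, cytochrome c, had 3.55 FPKM in the embryo against 429.8 in the adult (log2 fold change 6.92). ETFA and ETFDH, which bring electrons from fatty acid oxidation to ubiquinone, had 1.59 and 200.4 (6.98) and 1.43 and 91.0 (5.99). Over the 12 listed rows of electron carriers and ubiquinone synthesis, the median was 4.28, with a range of 2.58 to 6.98.

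SLC25A4, the ADP and ATP exchanger of muscle mitochondria, had 37.4 FPKM in the embryo against 4056 in the adult (log2 fold change 6.76), while its paralogue SLC25A5 had 1.30 and 3.88 (1.57, below the shift of each scaling). SLC25A3, the phosphate carrier, had 0.622 and 77.0 (6.95), where the ratio rests on a low embryonic value.

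Regulators of mitochondrial biogenesis stood lower. Of 19 symbols, 6 are listed, and their median log2 fold change, 2.47, is below 3 of the 4 scaling shifts. PPARGC1A, a coactivator of mitochondrial genes, had 0.583 FPKM in the embryo against 10.8 in the adult (4.21), and TFB2M, a mitochondrial transcription factor, had 0.857 and 34.4 (5.33), both ratios resting on an embryonic value under 1 FPKM. The other 4, ESRRB (1.59), TFB1M (2.38), GABPA (2.46) and POLG (2.49), lay below the median of the table. NRF1, TFAM and ESRRA are not listed.

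**Figure D5:**
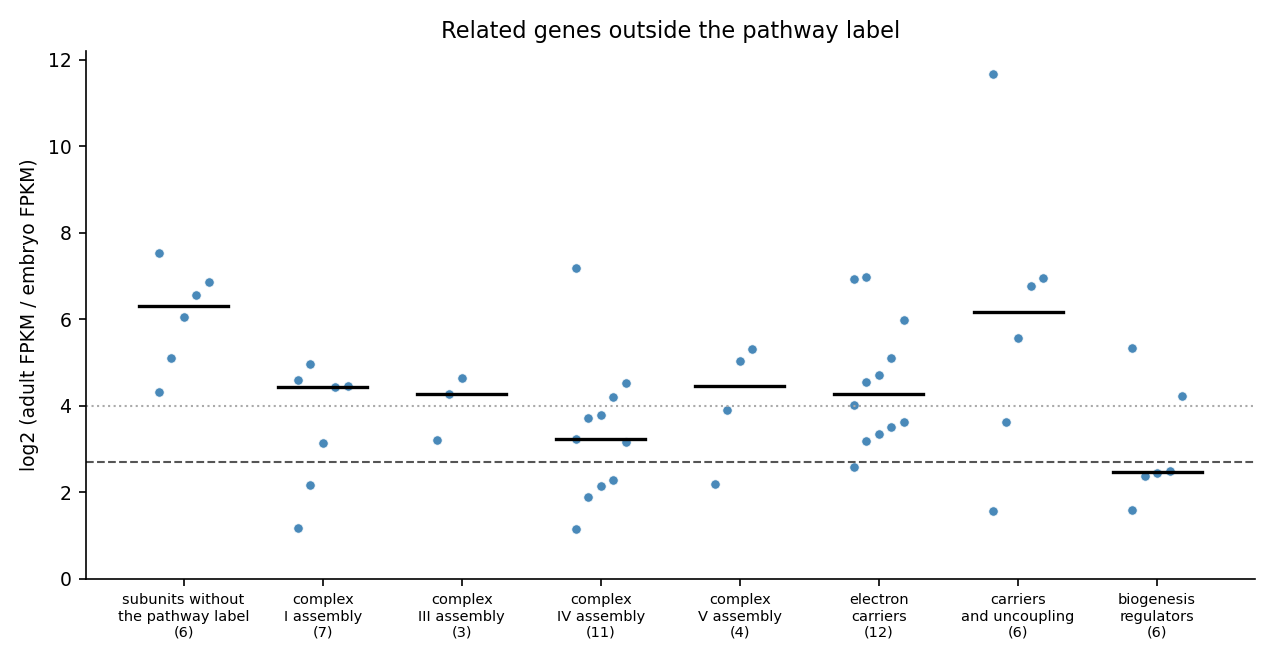
The log2 ratio of adult to embryonic FPKM is plotted for rows of related genes without the pathway label, by list, with the number of rows in brackets, a bar at the median, a dashed line at the table median (2.71) and a dotted line at 16-fold (4); rows at 0 in the embryo and the single complex II factor are left out. As deposited, all rows are above 0, and electron carriers and transporters reach 6.98 and 11.68. The latter is UCP3, with 0.127 FPKM in the embryo against 418 in the adult, a ratio that rests on a low embryonic value. The biogenesis regulators have a median of 2.47, which turns negative under 3 of the 4 scalings.

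Set beside other mitochondrial and ribosomal groups of the same table, the respiratory members were nearest to the citrate cycle. Its 16 transcripts without complex II had a median log2 fold change of 5.14, with 15 at least 16-fold higher in the adult. The 65 transcripts of mitochondrial ribosomal proteins, which translate the mitochondrially encoded subunits, had a median of 3.83, with 27 at least 16-fold higher. The 72 transcripts of cytosolic ribosomal proteins had a median of 2.31, with 3 at least 16-fold higher, and this median turns negative when centred on the table, on the same FPKM total or on the housekeeping transcripts. The differences between these groups were not tested.

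The members were scattered over the genome. Chromosomes 1 and 7 hold 8 members each and chromosome 3 holds 7, and the median locus spans 9528 bases. Only 8 pairs of different members lie less than 1000 kb apart. NDUFV1 and NDUFS8 lie 90.0 kb apart on chromosome 29 with no other row of the table between them, and their log2 fold changes were 5.82 and 3.97. ATP5D, UQCR11 and UQCRQ follow each other on chromosome 7 over gaps of 288 kb and 473 kb, and had 3.21, 4.91 and 6.84. Neighbouring members therefore included both like and unlike ratios.

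The other annotations of the table also separate the vacuolar pump from the respiratory members. The GO term mitochondrion is given to 81 members, of which 2 belong to the vacuolar ATPase, and mitochondrial inner membrane to 69, none of them vacuolar. The KEGG labels of Alzheimer's, Parkinson's and Huntington's disease are given to 73 members each, none vacuolar, and those labels draw on the same respiratory subunits. Cardiac muscle contraction is given to 19, 8 of complex III and 11 of complex IV. The phagosome label is given to 13 members and the lysosome label to 6, all of the vacuolar ATPase.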

How the data were processed

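Longissimus muscle RNA of 3 embryonic and 3 adult libraries had been sequenced after Ribo-Zero depletion, while the labels name polyA RNA. The authors trimmed reads with Trim Galore, aligned them to bosTau7 with TopHat2 2.0.14 and assembled and quantified transcripts with Cufflinks. The deposited values are FPKM, made by the authors from uniquely mapped fragments, with 1 value per stage. How the libraries of a stage were combined is not given in the sources used here. The authors' columns of fold change, p-value and q-value, and their GO tables, were not used.

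Log2 fold changes were computed here as log2 of adult over embryonic FPKM with Python 3.11.15, pandas 2.3.3 and numpy 2.4.6, without pseudocount or filter, by scripts tested on simulated data. A transcript at 0 in a stage has no fold change. No test between stages was possible, so groups were described by counts and medians beside the whole table. A difference of 16-fold was counted as large. Alternatives were pseudocounts of 1 and 0.1, 4 scalings, an FPKM minimum of 1, gene symbols as the unit, class code, subunits chosen by symbol, and sums without the highest member.

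The members and gene lists were chosen with earlier results of these data known. Named were the 3 largest and 2 smallest changes of each complex, its highest transcript in each stage, all of complex II, paired isoforms, members without a complex prefix and members with more than 1 transcript. Other named genes were chosen after their values were seen. Names were checked against RefSeq genes of another build, and sequences were not analysed here. One member that was counted in its group is not reported by name here.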

Additional observations from a re-analysis of the deposited data

How the results depend on the processing

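No paired analysis was possible because the deposited values are 1 FPKM per stage, and for the same reason no library could be left out. The number of members higher in the adult stayed at 95 with pseudocounts of 1 and 0.1. The same constant added to both stages cannot change which is higher.

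Scaling moved the 16-fold count, the medians and ratios. The distance of the members' median to that of the table, 2.23, cannot change when all fold changes are shifted alike. Centred on cytosolic ribosomal proteins, the members at least 16-fold higher were 7 and their median log2 fold change 2.63, with 3.01, 2.95, 3.14, 1.98, 2.72 and 0.50 for complexes I to V and the vacuolar ATPase and ratios of summed FPKM of 7.66, 7.75, 8.85, 5.73, 5.33 and 1.70. Centred on the table, they were 5 and 2.23, with 2.61, 2.55, 2.74, 1.58, 2.32 and 0.11 and ratios of 5.81, 5.88, 6.72, 4.34, 4.05 and 1.29. At the same FPKM total, they were 1 and 1.68, with 2.06, 2.005, 2.19, 1.03, 1.77 and -0.44 and ratios of 3.98, 4.03, 4.595, 2.97, 2.77 and 0.882. Centred on housekeeping transcripts, they were 0 and 1.25, with 1.62, 1.57, 1.76, 0.59, 1.33 and -0.88 and ratios of 2.94, 2.97, 3.39, 2.19, 2.04 and 0.652.

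Among named transcripts, in the order ribosomal, table, FPKM total and housekeeping, the log2 fold change turned to -0.69, -1.09, -1.64 and -2.08 for ATP6AP1, -0.88, -1.28, -1.83 and -2.26 for COX8A, -0.96, -1.36, -1.91 and -2.35 for LHPP, -0.41, -0.81, -1.36 and -1.80 for COX6A1 and -1.13, -1.53, -2.08 and -2.52 for ATP6V0A1. Under the last 2 of these it turned to -0.48 and -0.91 for ATP6V1G1, -0.30 and -0.74 for ATP6V1B2, -0.043 and -0.48 for ATP5D, -0.30 and -0.73 for the short ATP5E row and -0.45 and -0.89 for ATP6V0A2. Under the last it turned to -0.35 for PPA1, -0.28 for ATP6V1E1, -0.26 for COX7A2, -0.20 for PPA2 and -0.096 for COX4I1.

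With a pseudocount of 1, the median was 4.81, its distance to the table median 2.85, and the medians of complexes I, II, IV, V and the vacuolar ATPase 5.15, 5.11, 4.04, 4.92 and 2.18. With 0.1 that distance was 2.35. Complex IV had 4.04 with an FPKM of at least 1 in both stages, 5.43 with subunits chosen by symbol (members 5.15, distance 2.44) and 4.53 without rows spanning under 500 bases, an alternative chosen after the values were seen. Gene symbols as the unit and leaving out the highest member of a complex moved none of the counts, medians and ratios beyond set limits. These limits were 0.1 for a log2 median and 1.5-fold for a count or ratio. All 5288 rows carry the class code of a match to the reference, so choosing by class code left out no row and could change nothing.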
